A study of Mus musculus with 15 samples.

Results

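*Ccn3* (also named *Nov*) was followed here through the listed regions that overlap a window around the gene on chromosome 15 of mm39. Of 44598 regions in the table made for the *Smarcd1* knockdown comparison, 5 overlap this window, and of 38036 regions in the table made for the overexpression comparison, 0 do. The gene was chosen from the counts of the knockdown and Scr libraries, so their values at *Ccn3* are given as a description, and a call there follows from the choice. The study asked whether the level of *Smarcd1*, a subunit of the BAF chromatin-remodeling complex, changes which chromatin is accessible in 6DT1 cells, a mouse mammary carcinoma line, by assays of transposase-accessible chromatin (ATAC-seq) in monolayer culture. The 15 libraries comprised 3 each of an empty vector line (EV), a line with a *Smarcd1* overexpression vector (OE), an shScramble line (Scr) and the lines KD4 and KD6, which carry shRNAs against *Smarcd1*. The lines were made by viral transduction, and according to the methods the shRNA lines were kept in puromycin and the overexpression lines in blasticidin. Vector, selection and line therefore cannot be told apart when Scr is set beside EV. The labels do not say which shRNA KD4 or KD6 carries, and whether a line was 1 clone is stated nowhere in the labels or methods. The protocol in the labels, which describes RNA, has replicates seeded from separate passages, and whether this holds for the ATAC-seq libraries is not known, so the spread between libraries may be technical.

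CCN3 is a secreted matricellular protein, that is, a protein of the extracellular matrix that signals to cells rather than building structure. Most proteins of the CCN family, CCN3 included, share the same modules. These resemble an insulin-like growth factor binding protein, von Willebrand factor type C, thrombospondin type 1 and a C-terminal cysteine knot. Each module is encoded by an exon of its own. CCN3 binds integrins, restrains proliferation in many cell types and has been linked to the spread of breast cancer to bone. The protein-coding genes on either side of *Ccn3* in mouse are *Mal2*, which encodes a membrane trafficking protein, and *Enpp2*, which encodes autotaxin, in the RefSeq annotation of GRCm38.p6.

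The 5 regions are named 1 to 5 in the order of their positions. Region 1 is chr15:54609603-54609793, region 2 is chr15:54611167-54611419, region 3 is chr15:54612543-54612745, region 4 is chr15:54615609-54616136 and region 5 is chr15:54616383-54616965, all in mm39, with lengths of 191 bp, 253 bp, 203 bp, 528 bp and 583 bp. No annotation of mm39 was used here, and the spacing of the regions was compared with the exons of *Ccn3* in the GENCODE M1 annotation of NCBIM37, shifting all 5 together and converting no coordinates. At the best shift, regions 1, 2 and 3 lay on exons 2, 3 and 4 by 99.5%, 99.6% and 99% of their lengths. Regions 4 and 5 both lay wholly on exon 5, which is 1831 bp long, and 45.3% of region 4 and 100% of region 5 lay past the end of the coding sequence. By this spacing no listed region covers exon 1 or the gene start. Spacing alone does not name a gene: of 797 protein-coding genes of chromosome 15, 10 had a shift that did as well, *Ccn3* included, and for 2 of these the regions fell on at least 4 separate exons. The gene name rests on the window.

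**Figure D1:**
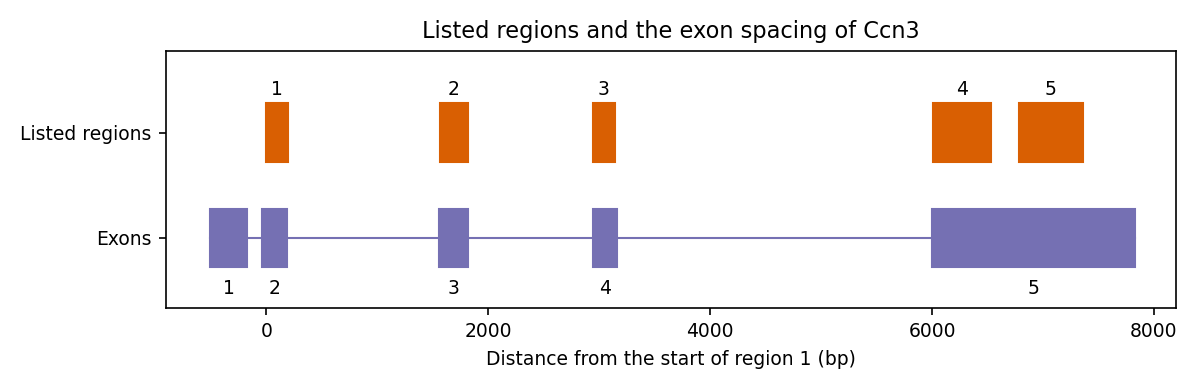
Listed regions (upper row, numbered 1 to 5) and exons of Ccn3 in GENCODE M1 (lower row, numbered 1 to 5) at the shift that best places the regions on exons, as distance in bp from the start of region 1. Regions 1 to 3 sit on exons 2 to 4, regions 4 and 5 sit on exon 5, and exon 1 has no listed region.

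The exon junctions between these regions are shown because fractional counts of regions 1 to 4, which by spacing lie on the joined exons, added up to whole numbers. Which of the junctions, if any, the reads crossed was not tested. Each is given 5′ to 3′ from the transcript Nov-001 of GENCODE M1, on the plus strand of chromosome 15 of NCBIM37, with the last 50 bases of the upstream exon in lower case and the first 50 bases of the downstream exon in capitals. The first joins the bases that end at 54577952 to those that start at 54579318, the second 54579578 to 54580705 and the third 54580919 to 54583764.
exon 2 to exon 3: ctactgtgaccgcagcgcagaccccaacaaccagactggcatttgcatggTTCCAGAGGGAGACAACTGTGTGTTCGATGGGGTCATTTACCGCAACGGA
exon 3 to exon 4: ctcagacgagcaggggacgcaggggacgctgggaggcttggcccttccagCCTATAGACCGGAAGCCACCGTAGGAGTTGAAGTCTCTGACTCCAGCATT
exon 4 to exon 5: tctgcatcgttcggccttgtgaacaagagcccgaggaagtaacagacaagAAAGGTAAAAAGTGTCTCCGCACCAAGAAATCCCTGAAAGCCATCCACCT

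The deposited values are expected counts, and at *Ccn3* they were fractions in most libraries. Region 1 and region 2 each had a value that was not whole in 14 of 15 libraries, region 3 in 13 and region 4 in 11, whereas region 5 was whole in all 15. Of all values in the table, 4.88% were not whole. The fractions added up across the gene: the sum of regions 1 to 4 was whole, within 0.002, in all 15 libraries. In 6 libraries regions 1 and 2 made a whole number as a pair and so did regions 3 and 4, and in 5 libraries only the 4 regions together did. In 2 more the first 3 regions were whole only together, in 1 the first pair was whole while regions 3 and 4 were whole each, and in Scr replicate 2 all values were whole. Regions 1 and 2 start 1564 bp from each other and regions 3 and 4 start 3066 bp from each other, so counts were divided between regions whose starts lie that far apart. How the authors' software divided them is not known here. The methods describe ATAC-seq with alignment by Bowtie2, but STAR 2.7.8a appears in the processing notes of the submitters, and the extraction protocol of the labels is one for RNA. What kind of molecule the *Ccn3* reads came from was not tested, and the values are called counts below, not accessibility. Counts were scaled for library size to CPM by the TMM method of edgeR over all 15 libraries.

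Over the 5 regions together, *Ccn3* counts were lowest in Scr and highest in KD6. The Scr libraries had 49, 46 and 61 counts in total, the KD4 libraries 120, 173 and 201, and the KD6 libraries 332, 245 and 290. EV libraries had 174, 250 and 170 counts and OE libraries 122, 246 and 103. Each Scr library was thus below every library of the other 4 lines. Scaled to depth, the Scr libraries had 3.03, 2.40 and 3.26 CPM, a mean of 2.89 ± 0.446 (SD, n = 3). The KD4 libraries had 6.76, 7.95 and 10.4 CPM, a mean of 8.38 ± 1.87 (SD, n = 3). The KD6 libraries had 15.4, 12.4 and 15.3 CPM, a mean of 14.4 ± 1.69 (SD, n = 3). KD4 and KD6 did not overlap each other, and neither overlapped Scr. Of the 44289 regions tested, 5.92% had KD6 above KD4 with no overlap and 2.44% had both knockdown lines above Scr. The EV libraries had 8.53, 11.2 and 8.004 CPM, a mean of 9.23 ± 1.70 (SD, n = 3). The OE libraries had 6.29, 10.96 and 5.81 CPM, a mean of 7.69 ± 2.85 (SD, n = 3). From high to low the lines were ordered KD6, EV, KD4, OE and Scr. The ranges of EV, KD4 and OE overlapped, so these neighbours in the order did not differ beyond their spread, while KD6 lay above EV and OE above Scr with no overlap. OE lay above Scr in this way at 10.8% of the 44444 regions tested, and the share for KD6 above EV was not counted.

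**Figure D2:**
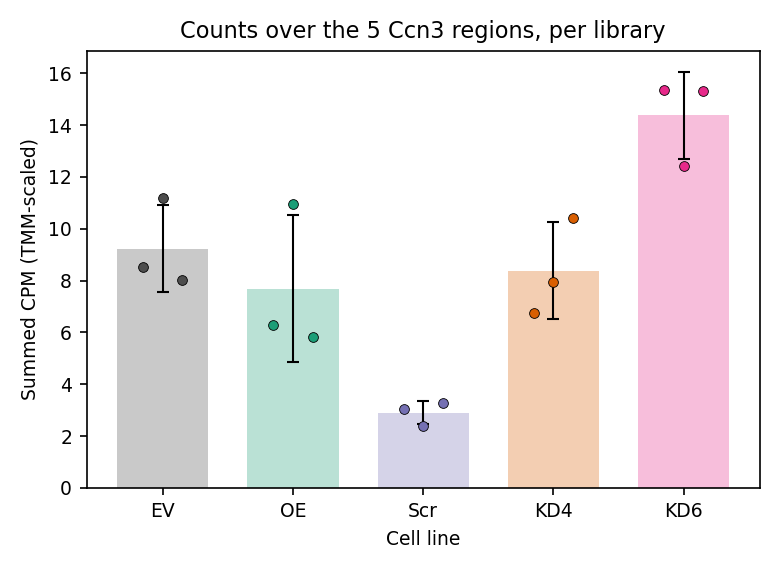
Summed TMM-scaled CPM over the 5 Ccn3 regions in each library (points, ordered by replicate number), with the mean (bar) and SD (error bar) of each line on the x axis. The 3 Scr libraries lie between 2.40 and 3.26 CPM and the 3 KD6 libraries between 12.4 and 15.4, and the EV, OE and KD4 libraries lie between these.

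Set against Scr, the knockdown lines had more counts at each of the 5 regions. The mean of KD4 and KD6 was 3.795-fold the Scr level over the summed regions (log2 difference 1.92, standard error 0.184). This standard error rests on the spread between libraries within a line and does not measure the spread between lines. By line, the sum was 2.90-fold in KD4 (log2 difference 1.54, standard error 0.203) and 4.97-fold in KD6 (log2 difference 2.31, standard error 0.20). Both lines were compared with the same Scr libraries, so these values are not independent of each other. Of the 5 regions, 3 (regions 2, 4 and 5) were past the false discovery rate of 0.05 of edgeR for the mean of both lines against Scr, where 0.255% of all 44289 regions tested were called higher. This contrast chose the gene, so the count is no test of *Ccn3*, and nothing is read from it or from that share.

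By position, the log2 differences between knockdown and Scr ran from 1.65 to 2.24, with a median of 1.81. Region 5, in the last exon, had the most counts and the smallest relative error. Its Scr libraries had 0.804, 0.729 and 0.854 CPM from 13 to 16 counts. Its KD4 libraries had 2.65, 3.08 and 3.11 CPM. Its KD6 libraries had 4.95, 4.47 and 5.13 CPM from 88 to 107 counts. The 3 lines did not overlap at region 5, and the share of all regions with such an order of the 3 lines was not counted. The knockdown mean at region 5 was 4.73-fold the Scr level (log2 difference 2.24, standard error 0.217). Region 4, which by spacing holds the coding part of exon 5 that encodes the C-terminal module, had 0.989, 0.261 and 1.05 CPM in Scr. Its KD4 libraries had 1.14, 1.76 and 3.16 CPM. Its KD6 libraries were close together at 3.48, 3.58 and 3.74 CPM. Scr replicate 2, with 5 counts, was the lowest library at region 4, and the log2 difference of 1.82 became 1.38 without it. Region 2, on the exon of the von Willebrand factor type C module, had 0.606, 0.573 and 0.855 CPM in Scr and 1.48 to 2.12 CPM in KD4. The KD6 libraries at region 2 had 3.68, 2.33 and 3.81 CPM, and the log2 difference between knockdown and Scr was 1.81 (standard error 0.281).

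The 2 shortest regions had the fewest counts. Region 1, on the exon of the insulin-like growth factor binding protein module, had 4 to 5.99 counts in Scr libraries and 3.62, 11.6 and 27.4 in KD4. KD4 replicate 1 was thus below all 3 Scr libraries there, with 0.204 CPM against 0.208 to 0.32 CPM, while the KD6 libraries had 0.711 to 1.73 CPM. Region 3, on the exon of the thrombospondin type 1 module, had 3.304 to 12 counts in Scr and 11.8 to 22.9 in KD4. Its KD6 libraries had 1.34 to 1.67 CPM, above all Scr libraries at 0.176 to 0.625 CPM, whereas KD4 at 0.612 to 1.29 CPM overlapped Scr. Counts of regions 1 to 4 depend in part on how reads were divided between them, which the sum over the gene does not. Over all 5 regions, the 6 knockdown libraries lay above the 3 Scr libraries with no overlap at 3 (regions 2, 4 and 5), as at 2.44% of the 44289 regions tested. KD6 alone did so at all 5, as at 5.94% of regions tested. Both counts come from the contrast that chose the gene, and nothing is read from them.

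**Figure D3:**
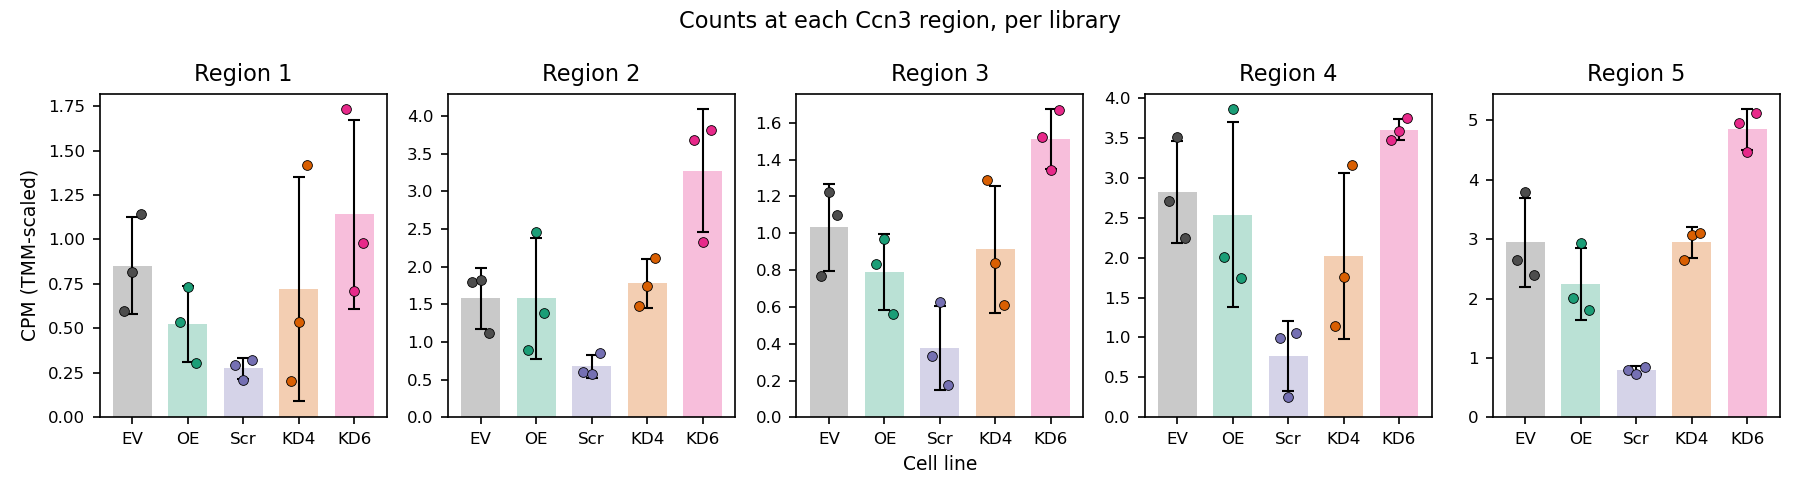
TMM-scaled CPM of each library (points, ordered by replicate number) at regions 1 to 5, with the mean (bar) and SD (error bar) of each line on the x axis. Each panel has its own y axis from 0. KD6 has the highest mean and Scr the lowest in each panel, and KD4 replicate 1 lies among the Scr libraries at region 1.

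The knockdown lines also differed from each other in level. KD6 had 1.715-fold the summed CPM of KD4 (log2 difference 0.78, standard error 0.18), and its libraries lay above all KD4 libraries at 4 of 5 regions, the exception being region 1. Of all 44289 regions tested, 5.92% had KD6 above KD4 with no overlap. The log2 difference was of like size along the gene, from 0.66 at region 1 to 0.88 at region 2, and was above 0 at all 5. None of the 5 was past the false discovery rate of 0.05 of edgeR in this contrast, where 0.224% of all regions tested were called in either direction. The sum without KD4 replicate 1 gave 0.65 and without KD4 replicate 3 gave 0.96, these being the KD4 libraries with the lowest and the highest sums.

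The comparison of OE with EV used libraries that played no part in the choice of the gene. Since the table made for this comparison lists no region at *Ccn3*, the EV and OE libraries were compared at the 5 regions of the knockdown table, and summed *Ccn3* counts did not differ beyond the spread between libraries. The OE level was 0.842-fold the EV level (log2 difference -0.25, standard error 0.208, edgeR adjusted p = 0.85), with a 95% interval of the fold from 0.621 to 1.14. The difference in summed CPM gave a two-sided exact permutation p of 0.5, where the smallest p that 3 libraries against 3 allow is 0.1. OE replicate 2, with 246 counts, lay inside the EV range, and the other two OE libraries lay below all EV libraries. Without OE replicate 2 the log2 difference was -0.61 (edgeR adjusted p = 0.753). Over all settings tried the edgeR or DESeq2 adjusted p of the sum was 0.56 to 1.

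Region by region the log2 differences between OE and EV were -0.70, 0.02, -0.35, -0.13 and -0.37, with edgeR adjusted p-values of 0.777, 0.995, 0.87, 0.951 and 0.811. Region 1 had 0.538, 0.732 and 0.308 CPM in OE and 0.599, 0.815 and 1.14 CPM in EV, so the groups overlapped, as they did at the other 4 regions. Of the 44011 regions tested, 11.4% had no overlap between OE and EV in either direction. None of the 5 regions passed the threshold, and 0% of all 44011 regions tested there did. At an unadjusted p under 0.05 there were 2903 of these regions (6.60%), of which 0 were at *Ccn3*, and DESeq2 called 0 higher and 4 lower over all of them.

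**Figure D4:**
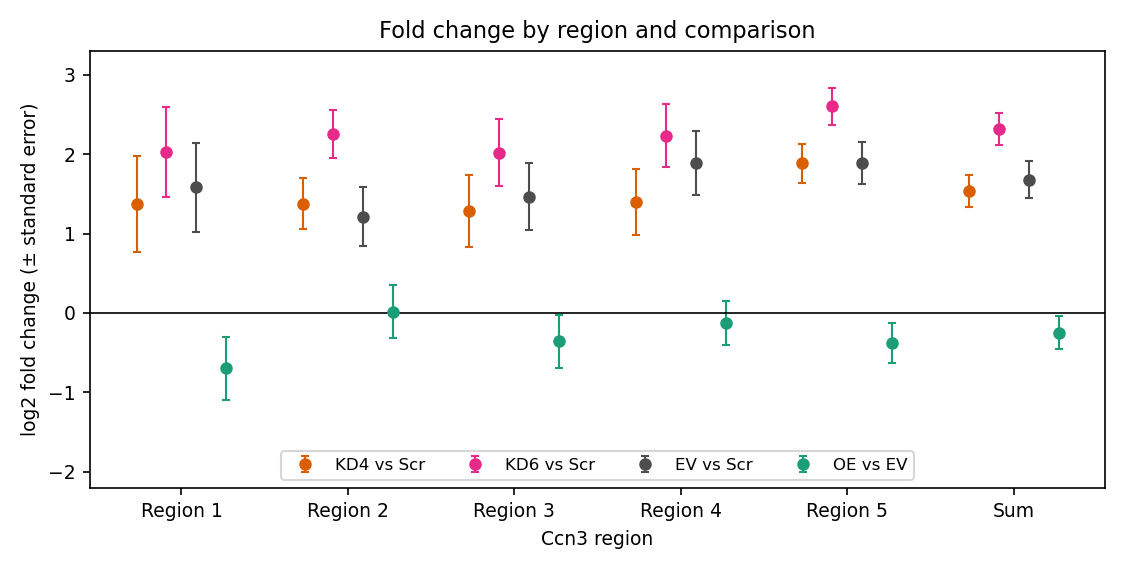
Log2 fold change (points) with its standard error (bars) at each Ccn3 region and for the sum, for KD4, KD6 and EV against Scr and for OE against EV, from edgeR. KD4, KD6 and EV share the Scr libraries and lie above 0 at all 5 regions, and OE against EV lies between -0.70 and 0.02.

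The EV and OE lines had more *Ccn3* counts than Scr. None of these lines carries an shRNA against *Smarcd1*, and the cause of the difference was not tested. The summed CPM of EV was 3.20-fold that of Scr (log2 difference 1.68, standard error 0.235), and that of OE was 2.68-fold (log2 difference 1.42, standard error 0.238), in a fit of all 15 libraries. EV libraries lay above all Scr libraries at all 5 regions, as at 13.1% of the 44444 regions tested, and OE libraries did so at 3, as at 10.8%. At region 5, for instance, EV had 2.65, 3.798 and 2.40 CPM and OE had 2.01, 2.94 and 1.80 CPM, where no Scr library exceeded 0.854 CPM. These comparisons share the Scr libraries with the contrast that chose the gene and are a description. Set beside EV in place of Scr, the KD4 sum was 0.907-fold (log2 difference -0.14, standard error 0.211) and the KD6 sum 1.56-fold (log2 difference 0.64, standard error 0.206). The position of KD4 relative to a control line thus depended on which control it was set beside, and KD6 was above both.

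Over the 15 libraries, Pearson's r between pairs of regions on the log2 CPM scale ran from 0.50 for regions 1 and 3 to 0.93 for regions 2 and 5, as a description, since the points share library and depth and regions 1 to 4 share reads. Region 5 held 32.4% of all *Ccn3* counts and region 1 held 8.31%. Across the lines, the share of region 1 ran from 6.86% in OE to 9.47% in Scr and that of region 2 from 17.0% in EV to 23.6% in Scr. The share of region 3 ran from 10.2% in OE to 13.3% in Scr, that of region 4 from 24.2% in KD4 to 33.2% in OE and that of region 5 from 27.6% in Scr to 35.2% in KD4. In these counts, pooled by line, Scr thus had the largest shares of regions 1 to 3 and the smallest of region 5. Its share of region 3 came largely from replicate 2, with 12 of 46 counts. Scr replicate 1 had 5.408 of 49 counts there and replicate 3 had 3.304 of 61. At region 1 the share in Scr was close to that in EV, 9.47% against 9.22%. The spread of shares between libraries was not computed, so no difference in profile between lines is read from them. Per kb of region, mean CPM over all libraries was 3.68 at region 1, 7.03 at region 2, 4.56 at region 3, 4.45 at region 4 and 4.73 at region 5. Region 2 thus had the highest level for its length, and in KD6 it reached 12.9 CPM per kb against 5.98 to 8.32 at the other regions.

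Within 100 kb on either side of the window a single other region was listed, chr15:54702725-54702917 of mm39. It had whole counts of 3, 8 and 5 in Scr, 4, 7 and 27 in KD4 and 18, 15 and 19 in KD6. In EV it had 28, 49 and 29 counts and in OE 22, 46 and 42, so EV and OE were the highest lines there, unlike at *Ccn3*. Its CPM in EV was 5.50-fold that in Scr (log2 difference 2.46, standard error 0.513), and KD4 overlapped Scr.

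Regions elsewhere with the most similar pattern were sought among 23825 regions with a mean of at least 5 CPM, by Pearson's r of log2 CPM with the *Ccn3* sum over 15 libraries. The 5 highest were chr6:86251908-86252221 (r = 0.90), chr11:88234422-88235470 (r = 0.89), chr14:40715696-40716553 (r = 0.89), chr7:82222918-82223979 (r = 0.88) and chr6:86095468-86096439 (r = 0.88), whose genes the files do not name. Scr had the lowest mean at all 5 and KD6 the highest, as at *Ccn3*. The regions were picked for their likeness to *Ccn3* over the same libraries, so this order follows largely from the search. The ratio of KD6 to Scr was smaller at each of the 5 than at *Ccn3*, with means from 23.4 CPM in Scr to 33.5 CPM in KD6 at the first of them, and from 8.01 to 23.1 CPM at the fifth. All 5 had whole counts in every library.

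In the series as a whole, totals in the knockdown table were 16176518 to 19152971 counts in Scr, 17339307 to 22133627 in KD4 and KD6 and 17239369 to 23703753 in EV and OE. All EV libraries, at 21050536 to 23703753 counts, were deeper than all Scr libraries. The ranges of all other pairs of lines overlapped. Of all regions, 883 had values that were not whole in at least 10 libraries, 4 of the 5 *Ccn3* regions among them, and these took 7.61% to 7.96% of counts in Scr, 7.82% to 8.04% in KD4 and 7.64% to 7.87% in KD6. The level of *Smarcd1* itself was not checked here, since the files name no genes. The region of the overexpression table with the smallest p for OE against EV, chr15:99605194-99605858, had 27.1 to 32.2 CPM in OE and 9.99 to 12.5 CPM in EV. There KD4 at 2.71 to 3.12 CPM lay below Scr at 3.54 to 6.07 CPM, and KD6 at 4.11 to 5.68 CPM overlapped Scr.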

How the data were processed

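The authors deposited expected counts per region, not normalized, in 1 table for each comparison. According to the methods reads were aligned to mm39 with Bowtie2 and peaks called with MACS in Partek Flow, whereas the submitters' processing notes name STAR 2.7.8a. How peaks were merged and reads assigned is stated nowhere in the labels or methods. Another 15 columns of each table match no sample and were not used. Counts were rounded and tested with edgeR 4.0.16 in R 4.3.3 (quasi-likelihood fit, TMM, filter on low counts, Benjamini-Hochberg over all regions), Scr, KD4 and KD6 in one fit and EV and OE in another. Standard errors are the log2 difference divided by the square root of its F statistic. Comparisons of EV or OE with the shRNA lines came from a fit of all 15 libraries. For the sum, 1 row of summed counts replaced the 5 regions. The design set the OE comparison in the overexpression table, which has no *Ccn3* region, so the knockdown table was used. Replicates differed by more than sampling noise (chi-square per degree of freedom at least 3.55). Exact permutation tests used scipy 1.17.1, and the procedure was tested on simulated data. Alternatives were other scalings, DESeq2 1.42.0, no filter, all libraries in 1 fit, a replicate block and leaving out each library. The members and lists were chosen with earlier results of these data known. All 5 regions were named by rule, with the largest change within 100 kb and the 5 most similar regions. The lists of CCN family, other matricellular, receptor and neighbouring genes and the cell type markers need an annotation of mm39 and were not applied.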

Additional observations from a re-analysis of the deposited data

How the results depend on the processing

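The summed *Ccn3* differences of 4 comparisons were recomputed and kept their direction in each alternative run for them. Scr against EV had 4 other settings and the rest 9. The other summed differences, which set KD4 or KD6 alone beside Scr or EV, or OE beside Scr, were not recomputed. The log2 difference of knockdown against Scr was 1.84 to 1.93 over other settings and 1.80 to 2.02 with each library left out, and in the same order that of KD6 against KD4 was 0.77 to 0.81 and 0.65 to 0.96, that of OE against EV was -0.29 to -0.19 and -0.61 to -0.08, and that of Scr against EV was -1.69 to -1.54 and -1.77 to -1.51. The number of regions past the threshold in knockdown against Scr was 1 to 3 with a library left out and 2 to 4 otherwise. Without any 1 of the Scr libraries it was 1, region 5. In the main fit 0.255% of all regions tested were called higher, and the share in the alternatives was not counted. This contrast chose the gene, so these numbers are no test of *Ccn3*, and nothing is read from them. In OE against EV the number of regions past the threshold was 0 throughout. Leaving out Scr replicate 2 moved region 3 to 2.32. In OE against EV, where no region was called, the sign of region 2 turned with DESeq2 (-0.00013), with the replicate block (-0.031) and with a library left out (range -0.479 to 0.302, with -0.17 without EV replicate 3 and the lowest without OE replicate 2), and that of region 4 turned with a library left out (range -0.584 to 0.076, with 0.07 without EV replicate 2, 0.02 without OE replicate 1 and the highest without OE replicate 3). The cause was not tested. Same-numbered libraries did not deviate together throughout, with correlations of -0.22 to 0.28 over 12 pairs, and 4 of the 6 EV and OE libraries correlated best with their own number. A replicate block gave 1.93 for knockdown against Scr and -0.29 for OE against EV (edgeR adjusted p = 0.56). The regions of the overexpression table gave no value, since none lies at *Ccn3*. Scaling by the regions with values not whole in at least 10 libraries and leaving out mitochondrial and the 20 largest regions were added after seeing the data. With 3.304 to 19.7 counts per Scr library at regions 1 to 4, depth limits what single regions can show, and the sum and region 5 are the more precise.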

Other observations

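Regions with values that were not whole in at least 10 libraries, as at most *Ccn3* regions, were counted apart after the data had been seen. Whether their counts were divided between regions was checked at *Ccn3* alone. The regions outside this set include some with values that were not whole in fewer libraries. Without the *Ccn3* regions, 14 of 878 such regions (1.59%) were past the false discovery rate of 0.05 of edgeR as higher in knockdown than in Scr, with 0 lower, and their median log2 difference was 0.08. Of the 43406 other regions 96 (0.221%) were higher and 7 lower, with a median of -0.01. In OE against EV 0 of 873 such regions were called by edgeR, with 75 (8.59%) at an unadjusted p under 0.05 and a median log2 difference of -0.06. DESeq2 was not counted over these regions. Regions of 1 gene may share reads and are not independent. The set with values not whole in at least 10 libraries, *Ccn3* included, made up 1.98% of all regions and took 7.61% to 7.96% of counts in Scr. It thus had more counts per region than the rest. Whether its larger share of calls followed from this depth was not tested.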
